A study of Mus musculus with 22 samples.

Results

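The 10 genes described here are Cd3e, Cd3d, Cd3g, Cd4, Cd8a, Cd8b1, Cd5, Il7r, Tcf7 and Lck. They were chosen by name as genes known from T cells and matched by symbol, each to 1 of the 56748 mouse Ensembl gene identifiers counted in every library. All 10 passed the filter on low counts that left 19202 genes for testing. Their levels were read in bulk RNA sequencing of 22 primary squamous tumours of the mouse oral cheek lining (buccal mucosa). In bulk tumour RNA, fewer cells of a type and less RNA per cell cannot be told apart.

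Tumours were started by injecting 4-hydroxytamoxifen, which activates the Cre recombinase of the Krt5CreER-T2/+ transgene, alone or together with BAP (benzo[a]pyrene, which is found in tobacco smoke and causes cancer). Every mouse carried Krt5CreER-T2/+, Trp53fl/fl and 2 copies of Rosa26LSL-PIK3CA(H1047R), in which Cre removes Trp53 and switches on an activated PIK3CA, in all 4 groups. The 12 Keap1-wildtype tumours had no further allele, and 6 of them received BAP and 6 did not. The 10 Keap1-deleted tumours also carried Keap1fl/fl, which removes the cytoplasmic inhibitor of the stress-response factor NRF2, and fell into 5 untreated and 5 BAP tumours. Below, "untreated" means without BAP. The Krt5 promoter drives Cre in basal keratinocytes, so infiltrating leukocytes are not the cells in which the alleles are meant to recombine. The labels give no ages and do not say whether each library came from a separate animal, so p-values here measure the spread between these samples, which may in part be technical.

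The products of the 10 genes serve antigen recognition and survival of T cells. The T cell receptor binds a peptide held by a major histocompatibility molecule, and the CD3 chains encoded by Cd3e, Cd3d and Cd3g carry that receptor to the surface and pass its signal inward. CD4 and CD8 are the co-receptors of helper and cytotoxic T cells, and the kinase LCK, bound to their tails, phosphorylates CD3. CD5 dampens that signal, the interleukin 7 receptor encoded by Il7r keeps naive and memory T cells and innate lymphoid cells alive, and the transcription factor encoded by Tcf7 acts in T lineage commitment and in stem-like T cells. Tcf7, Il7r, Cd4 and Cd5 are known outside T cells as well, in some myeloid, innate lymphoid, B or epithelial cells.

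Cd3g, Cd3d and Cd3e lie side by side on chromosome 9 within 40056 bases (GRCm38, 44969572 to 45009627, GENCODE M21 annotation), and Cd5 (ENSMUSG00000024669, minus strand) lies on chromosome 19 (10717116 to 10739002). Cd8b1 (71322788 to 71337494) and Cd8a (71373427 to 71379173) are neighbours on chromosome 6, which also holds Cd4 (124864692 to 124888221). Il7r (ENSMUSG00000003882) lies on chromosome 15 (9505788 to 9530176, minus strand), Tcf7 on chromosome 11 (52252371 to 52283014) and Lck on chromosome 4 (129548344 to 129573641). Antisense genes overlap Cd3e and Tcf7, and the sources do not state whether counting used strand. The non-coding gene Gm26551 overlaps Tcf7 on the same strand and has no level of its own in these data. The deposited length of Tcf7 was 3019 bases, against 2625 in the annotation. Whether reads of Gm26551 enter the Tcf7 count was not tested. The antisense genes reached at most 0.0616 and 0.445 CPM, with counts scaled here to the raw library total. Elsewhere CPM is the edgeR CPM unit, counts scaled to the effective library size. The stretches before their start sites are shown because the Cd3 genes are read together as a T cell signal below, while Cd5 followed another pattern. They are the 250 bases before the RefSeq start site on GRCm38.p6, written in the direction of transcription, at chr9:45009612-45009861 (minus strand) for Cd3e, chr9:44981536-44981785 (plus strand) for Cd3d, chr9:44980432-44980681 (minus strand) for Cd3g and chr19:10738975-10739224 (minus strand) for Cd5. Capitals mark matches on either strand to motifs of T lineage factors. RUNX factors were searched as TGTGGT, and TCF and LEF factors, the family of the Tcf7 product, as CTTTGA. For GATA factors the letters were AGATAA. For ETS factors, which also bind many promoters outside T cells, they were AGGAAG.
Cd3e: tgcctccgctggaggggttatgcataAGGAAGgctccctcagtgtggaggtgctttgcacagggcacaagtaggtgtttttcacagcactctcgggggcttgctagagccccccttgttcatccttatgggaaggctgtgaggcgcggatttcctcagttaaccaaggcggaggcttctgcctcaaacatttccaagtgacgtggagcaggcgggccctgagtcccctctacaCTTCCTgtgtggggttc
Cd3d: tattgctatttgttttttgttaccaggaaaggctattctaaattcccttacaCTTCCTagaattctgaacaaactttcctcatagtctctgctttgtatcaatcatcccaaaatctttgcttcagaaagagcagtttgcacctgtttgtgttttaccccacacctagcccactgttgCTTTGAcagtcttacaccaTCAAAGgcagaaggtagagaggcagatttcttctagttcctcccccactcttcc
Cd3g: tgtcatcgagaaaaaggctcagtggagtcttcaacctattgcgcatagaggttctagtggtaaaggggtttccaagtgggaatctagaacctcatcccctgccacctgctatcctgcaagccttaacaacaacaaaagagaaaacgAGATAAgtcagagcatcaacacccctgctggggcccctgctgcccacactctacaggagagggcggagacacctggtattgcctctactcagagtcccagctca
Cd5: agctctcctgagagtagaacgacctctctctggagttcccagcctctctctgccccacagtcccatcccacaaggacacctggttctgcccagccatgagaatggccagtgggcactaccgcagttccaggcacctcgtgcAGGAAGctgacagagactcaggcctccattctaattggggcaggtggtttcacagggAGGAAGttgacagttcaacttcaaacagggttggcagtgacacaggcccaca
The Cd3e window held 2 ETS matches, the Cd3d window 2 TCF/LEF matches and 1 ETS match, the Cd3g window 1 GATA match, and the Cd5 window 2 ETS matches. Among all 32851 RefSeq windows of this length, 29.5% held the ETS letters, 13.8% the TCF/LEF letters, 14.0% the RUNX letters and 9.99% the GATA letters on either strand, and the matches here are descriptions of letters only. RefSeq entries matched 8 of the 10 genes. Cd4 and Cd8b1 had none.

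Library totals ran from 29235010 to 39862777 counts. Keap1, the deleted gene, was lower in the Keap1-deleted untreated tumours (22.2 to 36.4 CPM) than in the Keap1-wildtype untreated tumours (45.8 to 78.9 CPM), with no overlap. With BAP, 1 library labelled Keap1-deleted (BAP 2) had 65.6 CPM, above every Keap1-wildtype BAP library (52.3 to 64.6 CPM), while the other Keap1-deleted BAP libraries were lower. The fitted log2 fold change of Keap1 was -0.98 ± 0.32 (edgeR adjusted p 0.137) without BAP and -0.93 ± 0.32 (adjusted p 0.0253) with it, over counts of the whole gene, exons that Cre leaves in place included. The library labelled Keap1-wildtype untreated 6 stood apart from its group with 762 CPM of Krt14, the basal keratinocyte keratin, against 9978 to 36945 CPM in the others. Both libraries were kept, and results that rest on them are also given without them.

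Per kilobase of deposited gene length, Tcf7 was the highest of the 10 genes, with a mean of 4.17 CPM per kb over the 22 libraries. Reads of the overlapping gene Gm26551, if any, were not separated from it. Cd5 (1.32), Il7r (1.02) and Lck (0.954 CPM per kb) followed. Cd3d (0.774), Cd4 (0.635) and Cd3g (0.575 CPM per kb) were lower, and Cd8b1 (0.268), Cd8a (0.205) and Cd3e (0.173 CPM per kb) were lowest. For scale, Ptprc, the CD45 gene of all leukocytes, averaged 2.46 CPM per kb on the same measure, with a deposited length of 18313 bases. Deposited lengths mostly equal the union of annotated exons, which can exceed the length of a single transcript. Orders between genes per kilobase depend on that choice of length. The order between neighbours such as Il7r and Lck is not a difference beyond their spread, since both genes varied widely between libraries of 1 group.

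The 3 Cd3 genes were at the edge of detection in many tumours, with 0 to 205 counts per library, and all 3 had their highest median in Keap1-deleted untreated tumours. Cd3e, the chain that every T cell receptor complex needs, ran from 0.166 to 1.27 CPM (median 0.347) in Keap1-wildtype untreated tumours and from 0 to 1.08 CPM (median 0.106) in Keap1-wildtype BAP tumours. It measured 0.775, 2.28, 1.39, 1.77 and 1.14 CPM in the 5 Keap1-deleted untreated tumours and 0.540, 0.101, 0.598, 1.31 and 0.854 CPM in the 5 Keap1-deleted BAP tumours. The Keap1-deleted untreated libraries were mostly above the others, but the ranges overlapped in every comparison. The library at 0, Keap1-wildtype BAP 6, could have held up to 0.112 CPM, which is what 3 counts are worth there.

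Cd3d, the delta chain, ran from 0 to 3.04 CPM (median 0.852) in Keap1-wildtype untreated and from 0.0764 to 2.01 CPM (median 1.16) in Keap1-wildtype BAP tumours. In Keap1-deleted tumours it read 1.36, 4.45, 2.35, 1.5 and 1.22 CPM without BAP and 0.991, 0.379, 1.48, 1.74 and 0.471 CPM with it. Every group held both low and high libraries, and no pair of groups was apart. Cd3g, the gamma chain, ran from 0.495 to 3.66 CPM (median 1.34) and from 0.222 to 3.32 CPM (median 0.389) in Keap1-wildtype untreated and BAP tumours. Without BAP the Keap1-deleted tumours had 2.36, 5.49, 4.34, 2.43 and 1.99 CPM of Cd3g, and with BAP 0.600, 0.429, 1.11, 3.40 and 3.42 CPM. In the Keap1-deleted BAP group 2 libraries were as high as the untreated ones and 3 were lower, and 1 Keap1-wildtype BAP library, number 6, was far above its group.

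Cd4, the co-receptor of helper T cells, ran from 0.388 to 7.40 CPM (median 2.00) in Keap1-wildtype untreated tumours and from 0 to 1.86 CPM (median 0.904) in Keap1-wildtype BAP tumours. In Keap1-deleted tumours it was 2.57, 5.22, 4.62, 6.83 and 3.18 CPM without BAP and 1.05, 1.54, 2.89, 1.26 and 1.65 CPM with BAP. All but 1 of the Keap1-deleted BAP libraries lay below all untreated ones of that genotype, and the remaining library overlapped them. Cd8a, which encodes the alpha chain of the CD8 co-receptor, ran from 0.268 to 1.68 CPM (median 0.751) and from 0.0956 to 1.07 CPM (median 0.229) in Keap1-wildtype untreated and BAP tumours. With Keap1 deleted it was 0.186, 0.214, 1.89, 0.809 and 0.517 CPM in untreated and 0.540, 0.353, 1.11, 1.47 and 1.47 CPM in BAP tumours. In the Keap1-wildtype BAP group 5 of the 6 libraries were at or below 0.336 CPM and 1 was at 1.07 CPM, and the groups overlapped in each comparison. Cd8b1, the beta chain of CD8, stayed between 0 and 1.4 CPM in all libraries and had no counts in 1 Keap1-wildtype untreated and 3 Keap1-wildtype BAP libraries, where up to 0.0874 to 0.115 CPM could have gone unseen.

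Cd5 was the gene among the 10 whose groups differed most. It ran from 1.32 to 11.9 CPM (median 5.86) in Keap1-wildtype untreated tumours and from 8.77 to 21.8 CPM (median 10.2) in Keap1-wildtype BAP tumours. In Keap1-deleted tumours it was 7.56, 4.85, 2.74, 1.35 and 8.22 CPM without BAP and 0.961, 1.29, 1.61, 0.482 and 0.265 CPM with BAP. All 5 Keap1-deleted BAP libraries were below all 6 Keap1-wildtype BAP libraries, with a wide gap between the groups. They overlapped the Keap1-deleted untreated range only through 1 untreated library, number 4, at 1.35 CPM.

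Il7r, the alpha chain of the interleukin 7 receptor, ran from 2.85 to 6.60 CPM (median 4.59) in Keap1-wildtype untreated tumours and from 0.764 to 3.75 CPM (median 2.75) in Keap1-wildtype BAP tumours. It measured 13.3, 14.6, 4.52, 7.07 and 6.83 CPM in Keap1-deleted untreated tumours, against 2.73, 0.909, 4.8, 2.57 and 3.12 CPM when BAP was added. Untreated Keap1-deleted tumours held the highest libraries of the study, and the BAP ranges were low in both genotypes, with 1 Keap1-deleted BAP library inside the untreated range. Tcf7 had medians of 11.8 CPM without and 11.8 CPM with BAP in Keap1-wildtype tumours, and of 16.6 and 9.51 CPM in Keap1-deleted ones, within 4.24 to 27.3 CPM over all libraries. Lck had medians of 3.74 and 2.03 CPM in Keap1-wildtype tumours and 1.84 and 2.22 CPM in Keap1-deleted ones, within 0.589 to 6.68 CPM. For both genes the ranges of every 2 groups overlapped.

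**Figure D1:**
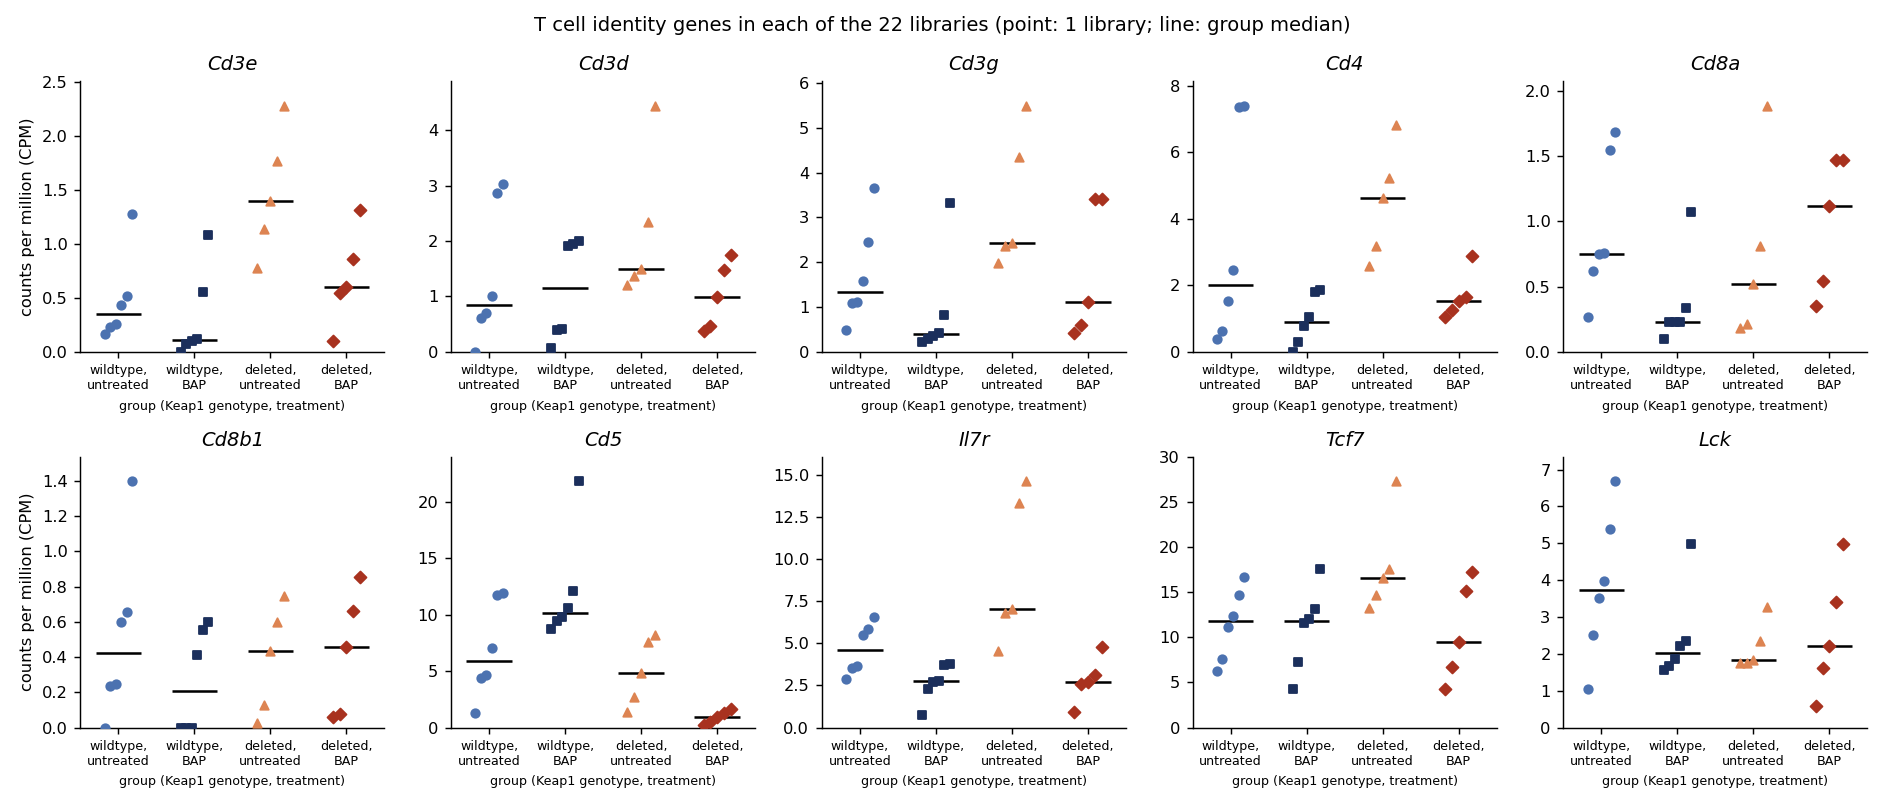
Level of each of the 10 genes in CPM (linear axis from 0) in every library, by group, where each point is 1 library and each line a group median. Cd5 shows the 5 Keap1-deleted BAP libraries at 0.265 to 1.61 CPM under the 8.77 to 21.8 CPM of Keap1-wildtype BAP, while in the other panels the groups of each comparison overlap.

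Deletion of Keap1 without BAP changed none of the 10 genes past the threshold of an adjusted p of 0.05 in edgeR's quasi-likelihood test, and 1 of them (Il7r) had an unadjusted p under 0.05. DESeq2 and limma-voom also called 0. Over all genes the test called 0.292% in this comparison, or 56 genes, which became 2731 without Keap1-wildtype untreated 6 and 16 to 54 without any other library. The fitted log2 fold change was 1.61 ± 0.83 (SE; adjusted p 0.315) for Cd3e, 0.94 ± 0.70 (adjusted p 0.488) for Cd3g and 0.66 ± 0.86 (adjusted p 0.704) for Cd3d. Il7r had 0.99 ± 0.42 (adjusted p 0.234) and Tcf7 0.64 ± 0.37 (adjusted p 0.366). Lck had -0.81 ± 0.50 (adjusted p 0.391) and Cd5 -0.47 ± 0.53 (adjusted p 0.659), so the 10 genes did not share a sign. Their median was 0.54, against -0.05 over all genes tested. No member's ranges were apart, where 1.94% of all genes had groups that did not overlap.

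Among BAP tumours, Cd5 fell with Keap1 deletion and none of the other 9 genes passed the test. Its log2 fold change was -3.70 ± 0.61 (SE, n = 5 and 6; edgeR adjusted p 0.000361), and without the 2 libraries that stood apart it was -3.85 (adjusted p 0.000114). This was 1 call of 10 in a comparison that called 40.3% of all genes, 20.3% as higher and 20% as lower, so the share of these genes called was below the background. Cd8a, at 1.44 ± 0.69 (adjusted p 0.102), and Cd3e, at 1.07 ± 0.83 (adjusted p 0.318), were the largest positive values. Cd3g had 0.98 ± 0.71 (adjusted p 0.281), Cd4 0.81 ± 0.78 (adjusted p 0.429) and Cd8b1 0.69 ± 1.18 (adjusted p 0.670). Il7r (0.08), Lck (0.08), Tcf7 (-0.06) and Cd3d (-0.14) were near 0. The median of the 10 was 0.39, against -0.001 over all genes. Cd5 was also the only 1 of the 10 whose ranges did not overlap, where 27.5% of all genes had ranges apart.

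The scaling of the libraries bears on this comparison. Under library totals alone the median of all genes moved to 0.44, 6051 of 8244 calls were higher in place of 3900 of 7746, and Cd8a passed at 1.93 (adjusted p 0.0338), which is 1.49 above that median. Cd3d and Tcf7 changed sign there, to 0.33 and 0.40, both below the shifted median. Cd8a also passed when the outlying library Keap1-wildtype BAP 4 was left out (2.14, adjusted p 0.0215), and Cd3g passed without Keap1-wildtype BAP 6 (2.12, adjusted p 0.0153).

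BAP in Keap1-wildtype tumours changed none of the 10 genes by edgeR, DESeq2 or limma-voom, although 9 of the 10 fitted values were negative. Of these, Cd3d and Tcf7 turned positive when the 2 libraries that stood apart were left out, and Tcf7 with limma-voom. All 5 pan-leukocyte genes had negative values as well, none past the threshold. One gene, Cd4, had an unadjusted p under 0.05. edgeR called 0% of all genes in this comparison (2622 genes had an unadjusted p under 0.05), limma-voom called 0 genes and DESeq2 called 892. Cd4 had the most negative value, -1.78 ± 0.77 (adjusted p 0.303). Cd8a had -1.36 ± 0.67 (adjusted p 0.378), Cd8b1 -1.0 ± 1.13 (adjusted p 0.748), Cd3g -0.93 ± 0.68 (adjusted p 0.584) and Il7r -0.80 ± 0.41 (adjusted p 0.394). Cd5 was the exception, with 0.82 ± 0.51 (adjusted p 0.5). The median of the 10 was -0.73 against -0.09 over all genes. Every member's groups overlapped, where 0.286% of all genes had ranges apart.

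In Keap1-deleted tumours, Cd5 and Il7r fell with BAP. Cd5 had a log2 fold change of -2.41 ± 0.59 (SE, n = 5 and 5; edgeR adjusted p 0.0241) and Il7r one of -1.71 ± 0.45 (adjusted p 0.0315). These were 2 lower calls of 10 where 6.1% of all genes were called, 0.943% as higher and 5.16% as lower. The 1172 genes called became 181, 187 or 219 without Keap1-deleted untreated 1, untreated 5 or BAP 4, 361 to 504 without untreated 2, BAP 1 or BAP 5, and 869 to 1597 without any other library. The calls among the 10 were not steady either. Leaving out 1 library at a time gave 0 to 2 called genes. Both calls were lost without Keap1-deleted untreated 1 or 5 or Keap1-deleted BAP 1, 4 or 5 (adjusted p 0.0520 to 0.0742 for Cd5), and Il7r also without Keap1-deleted untreated 2 or Keap1-deleted BAP 2 (adjusted p 0.0574 to 0.0938 over its 7 losses). Without the 2 libraries that stood apart both held, Cd5 at -2.56 (adjusted p 0.0115) and Il7r at -1.49 (adjusted p 0.0468). A fit on these 2 groups alone called neither (adjusted p 0.0583 for Cd5 and 0.0670 for Il7r).

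The values of the other 8 genes did not pass in that comparison. Cd4 had -1.41 ± 0.83 (adjusted p 0.362), Cd3e -1.11 ± 0.87 (adjusted p 0.532), Cd3d -1.1 ± 0.91 (adjusted p 0.556), Cd3g -0.89 ± 0.74 (adjusted p 0.559) and Tcf7 -0.76 ± 0.39 (adjusted p 0.281). Cd8a (0.45), Lck (0.23) and Cd8b1 (0.12) had small positive values. The median of the 10 was -0.99, against -0.02 over all genes. No member had groups apart, where 5.93% of all genes did. The comparisons share groups: Keap1-deleted BAP enters this one and the Keap1 comparison among BAP tumours, so the falls of Cd5 in both rest on the same 5 libraries.

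The interaction asks whether the effect of BAP differed between the genotypes. Cd5 passed, at -3.24 ± 0.77 (edgeR adjusted p 0.0299, -3.17 and adjusted p 0.0219 without the 2 libraries that stood apart), as 1 of 10 genes where 6.94% of all genes were called, 2.47% as positive and 4.47% as negative. That background itself rested on single libraries: the 1333 genes called became 1 without Keap1-deleted untreated 1, 2 or 5 and 2 without Keap1-deleted BAP 4, and without any other library the count ran from 349 to 2309. The Cd5 call was lost when any of the same 4 libraries was left out (adjusted p 0.0514 to 0.0700). Il7r had -0.91 ± 0.60 (adjusted p 0.350), so its fall with BAP was not shown to differ between genotypes. Cd8a had the largest positive value, 1.81 ± 0.98 (adjusted p 0.242). The median of the 10 was -0.25 against 0.10 over all genes.

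**Figure D2:**
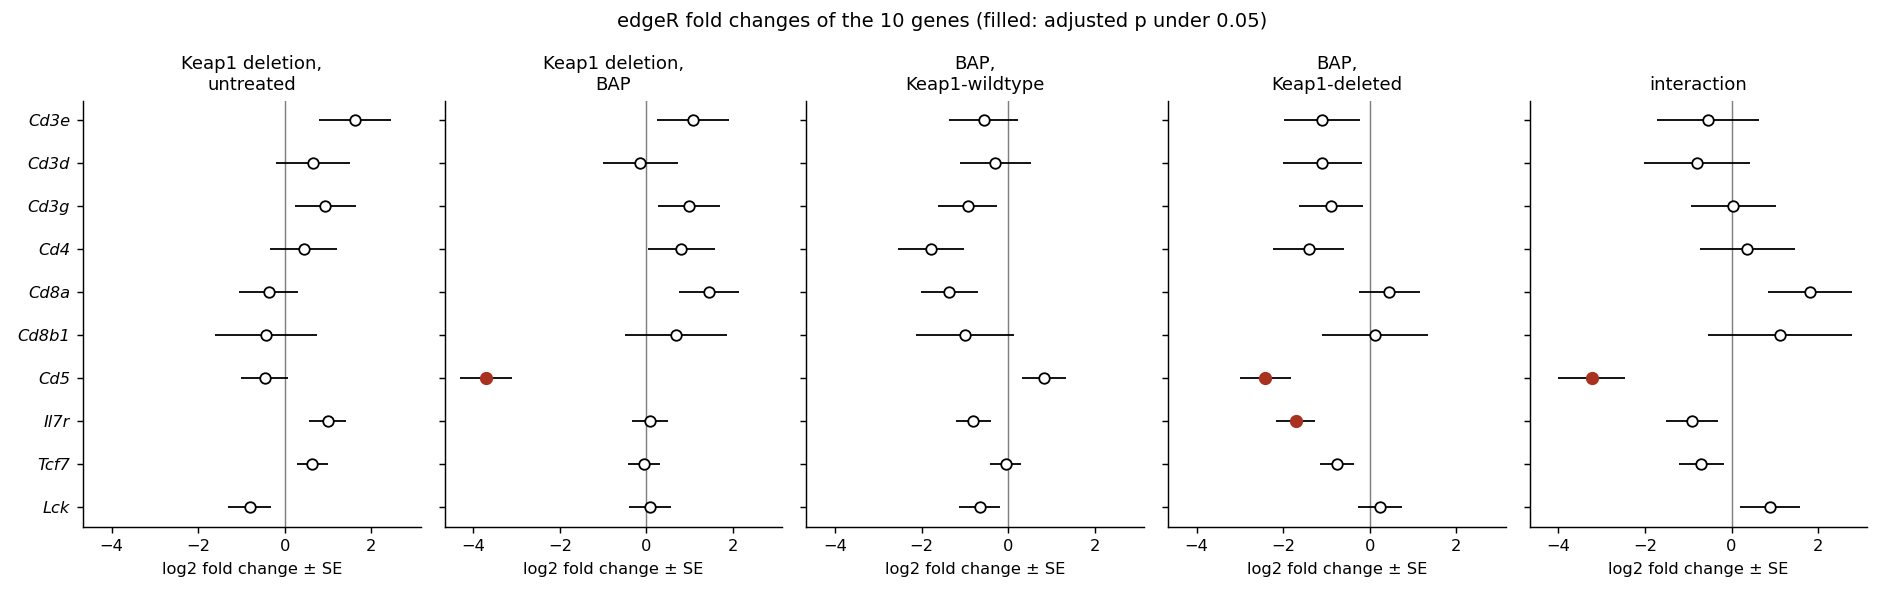
log2 fold change with its standard error for each of the 10 genes in the 5 comparisons of the edgeR fit, with filled points where the adjusted p is under 0.05. Filled points are Cd5 in Keap1 deletion with BAP (-3.70), BAP in Keap1-deleted tumours (-2.41) and the interaction (-3.24), and Il7r in BAP in Keap1-deleted tumours (-1.71).

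Set against leukocyte RNA as a whole, the Cd3 genes were lowest in Keap1-deleted BAP tumours. Ptprc ran from 8.59 to 104 CPM (median 18.3) in Keap1-wildtype untreated and from 5.04 to 13.2 CPM (median 6.83) in Keap1-wildtype BAP tumours. It was 38.0, 92.0, 79.1, 73.5 and 37.6 CPM in Keap1-deleted untreated tumours, and 63.7, 38.0, 61.3, 86.9 and 179 CPM when BAP was added. With BAP the 2 genotypes did not overlap, and edgeR gave a log2 fold change of 3.44 ± 0.56 (adjusted p 0.000361) with Keap1 deletion.

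The summed counts of Cd3e, Cd3d and Cd3g per 100 Ptprc counts ran from 5.37 to 26.2 (median 16.5) in Keap1-wildtype untreated and from 6.44 to 73.7 (median 27.8) in Keap1-wildtype BAP tumours. They were 11.8, 13.3, 10.2, 7.74 and 11.6 in Keap1-deleted untreated tumours. In Keap1-deleted BAP tumours they were 3.34, 2.39, 5.22, 7.43 and 2.64. All 5 of these lay below all 5 Keap1-deleted untreated libraries, and 1 of them overlapped the Keap1-wildtype BAP range.

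The log2 of this ratio averaged -4.70 ± 0.68 (SD, n = 5) in Keap1-deleted BAP, -3.21 ± 0.30 (n = 5) in Keap1-deleted untreated, -2.16 ± 1.41 (n = 6) in Keap1-wildtype BAP and -2.88 ± 0.93 (n = 6) in Keap1-wildtype untreated tumours. With BAP, Keap1 deletion gave a difference of -2.54 (exact permutation test, two-sided p 0.0108, or 0.0433 when adjusted for the 8 ratio tests). In Keap1-deleted tumours, BAP gave a difference of -1.49 (exact permutation p 0.00794, the smallest that 5 against 5 allows, adjusted p 0.0433). Both calls sat close to the threshold: without the 2 libraries that stood apart the differences were -2.38 and -1.32, each with an exact permutation adjusted p of 0.0635. Leaving out any single library of the groups compared also ended the calls (adjusted p 0.0571 to 0.0952), except Keap1-wildtype BAP 3 for the first and Keap1-deleted untreated 3 for the second, and with fewer libraries the smallest p that the exact permutation test can give is larger. Over these the differences ran from -2.90 to -2.20 and from -1.72 to -1.32. Keap1 deletion without BAP (-0.33, exact permutation adjusted p 0.612) and BAP in Keap1-wildtype tumours (0.73, exact permutation adjusted p 0.492) did not pass. The difference between the 2 BAP effects was not tested on this ratio.

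Macrophage and natural killer cell markers moved with the denominator of this ratio. Among BAP tumours, 9 of the 10 macrophage markers rose and 1 fell with Keap1 deletion, and their summed level was 1814 to 3806 CPM in Keap1-deleted BAP against 287 to 723 CPM in Keap1-wildtype BAP tumours. All 7 tested natural killer cell markers rose too. The 8 listed ones summed to 0.2 to 0.9 CPM in Keap1-wildtype BAP, with Ncr1, Klre1 and Klra8 at 0 in every library there, and to 3.4 to 42.0 CPM in Keap1-deleted BAP tumours. In the same comparison 20.3% of all genes were called higher and 20% lower. There 4 of 7 dendritic cell markers and 1 of 4 B cell markers rose. Of 6 neutrophil markers 1 rose and 2 fell, and of 6 markers of group 2 innate lymphoid cells 1 rose and 3 fell (median -0.49). With BAP in Keap1-deleted tumours 1 of the 10 macrophage markers and none of the natural killer cell markers rose. Of all genes 0.943% were called higher there, and Ptprc itself had 0.42 ± 0.55 (adjusted p 0.727). The part of these cells in the ratio was not tested.

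The balance of Cd8a to Cd4 passed in no comparison. The log2 ratio averaged -3.03 ± 1.21 (SD, n = 5) in Keap1-deleted untreated and -0.87 ± 0.93 (n = 5) in Keap1-deleted BAP tumours, a difference of 2.16 (exact permutation p 0.0238, adjusted p 0.0635 over the 8 tests). Without Keap1-deleted untreated 3 it passed, at 2.60 (exact permutation adjusted p 0.0423). All 5 untreated libraries had more Cd4 than Cd8a counts, as had 4 of the 5 BAP libraries. Keap1 deletion without BAP gave -1.77 (exact permutation adjusted p 0.242). In Keap1-wildtype BAP tumours the ratio ran from -4.01 to 5.88, the highest being library 4, which had 29 Cd8a counts and none of Cd4. The other differences were -0.09 for Keap1 deletion with BAP (exact permutation adjusted p 0.974) and 0.49 for BAP in Keap1-wildtype tumours (exact permutation adjusted p 0.933), and without library 4 they were 1.24 and -0.84.

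**Figure D3:**
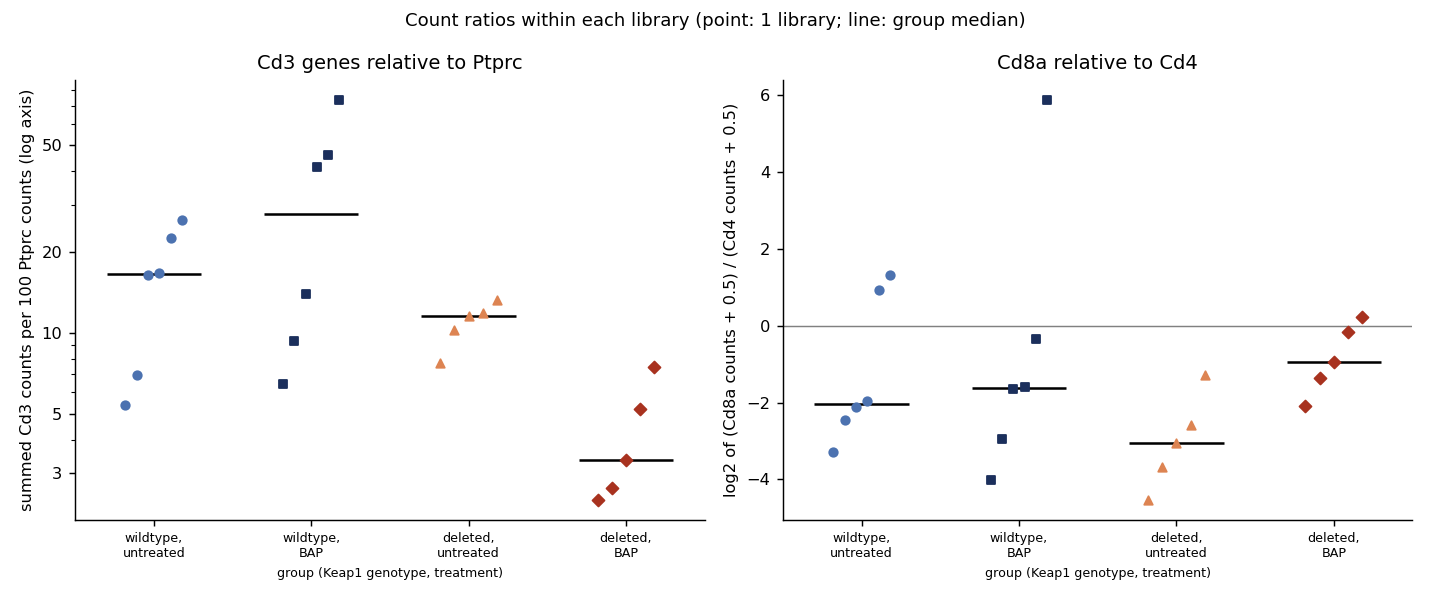
Left, summed Cd3e, Cd3d and Cd3g counts per 100 Ptprc counts (log axis), and right, log2 ratio of Cd8a to Cd4 counts with 0.5 added to each, by group, with 1 point per library and a line at each group median. On the left the Keap1-deleted BAP libraries sit between 2.39 and 7.43, below the Keap1-deleted untreated libraries at 7.74 to 13.3.

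Within groups, the 10 genes did not vary as 1 block. After group means were removed, Pearson's r over the 22 libraries was 0.39 between Cd3e and Cd3d, 0.47 between Cd3d and Cd3g and 0.15 between Cd3e and Cd3g. Cd3d was closest to Il7r (r = 0.64), and Cd3g to Cd8b1 (r = 0.55). Cd8a and Cd8b1, the 2 chains of 1 co-receptor, had r = 0.41. Cd5 was negative with Cd3g (r = -0.47), Cd4 (-0.43), Cd8b1 (-0.43) and Cd8a (-0.36), and Il7r was negative with Tcf7 (-0.56). Without the 2 libraries that stood apart the Cd5 values were -0.41 with Cd3g, -0.32 with Cd4, -0.28 with Cd8b1 and -0.21 with Cd8a. The points share libraries and scaling, and counts of the Cd3 and Cd8 genes are low, so these are descriptions only.

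Set against lists of other genes, Cd3d and Cd4 went with the rest of the T cell machinery and with leukocyte genes in general. Cd3d had r = 0.73 with the antigen receptor signalling list and 0.52 with the pan-leukocyte list, and Cd4 had 0.61 and 0.69. Cd5 went the other way, with -0.41 for signalling, -0.70 for pan-leukocyte genes, -0.62 for macrophage genes and 0.64 for basal keratinocyte genes. Much of this rested on the 2 libraries that stood apart: without them the Cd5 values were -0.04, -0.50, -0.34 and 0.42 in the same order, while Cd3d had 0.71 and 0.43 and Cd4 0.55 and 0.74 with signalling and pan-leukocyte genes. Tcf7 had 0.09 with the signalling list and 0.08 with the pan-leukocyte list, and Lck 0.39 and 0.22. Without the 2 libraries these were -0.02 and -0.09 for Tcf7 and 0.24 and -0.09 for Lck. The name T cell identity genes is therefore kept here only for what the 10 genes are known for: in these tumours several had r near 0 or below with the Cd3 genes. With Cd3e, Cd3d and Cd3g in that order, r was -0.19, -0.08 and -0.47 for Cd5, -0.13, -0.19 and -0.06 for Tcf7, 0.15, 0.17 and -0.12 for Lck, and -0.11, 0.02 and 0.12 for Cd8a. Cd3e and Cd3g themselves had 0.15.

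**Figure D4:**
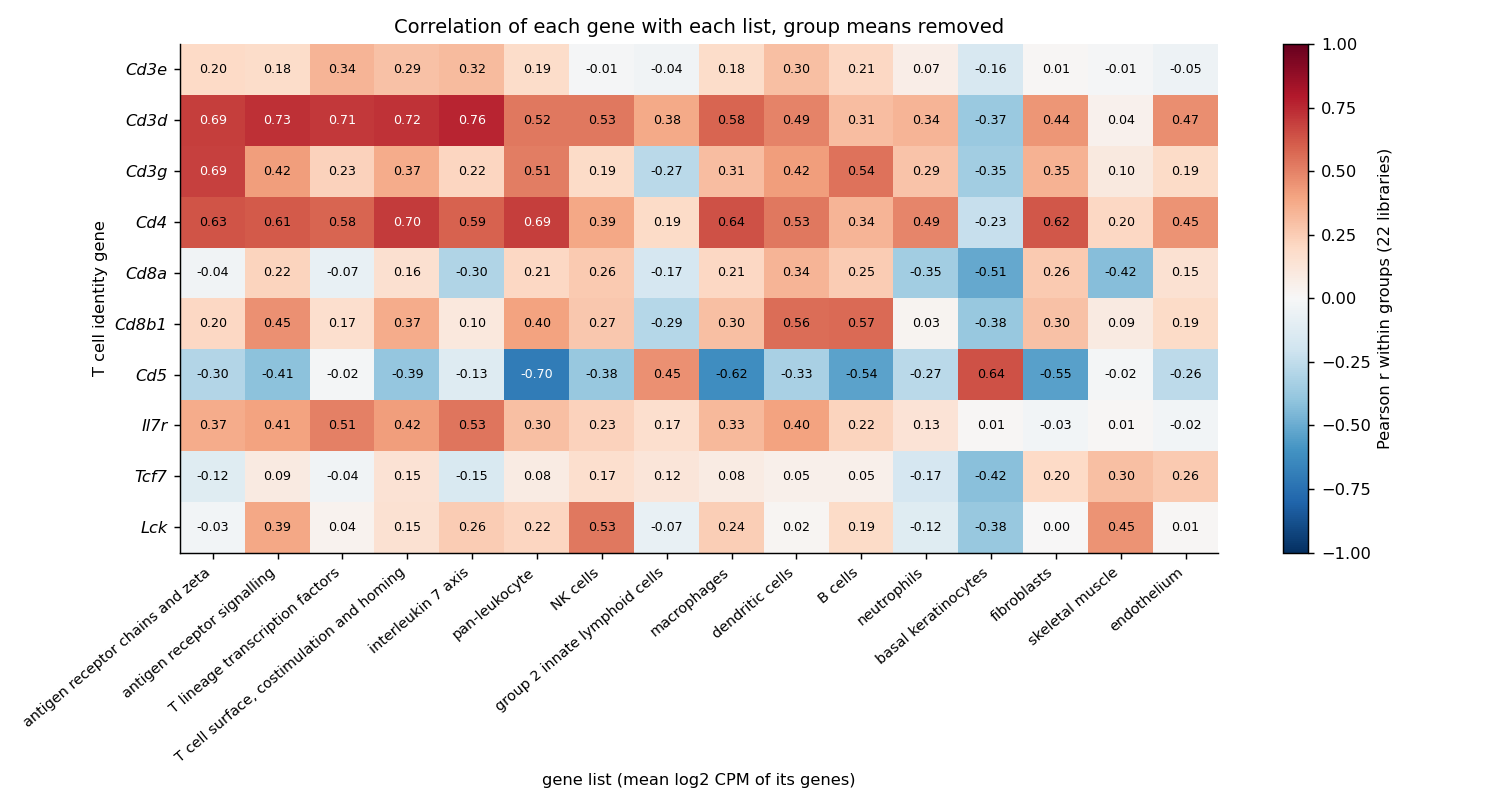
Pearson's r, after removing group means, between each of the 10 genes (rows) and the mean log2 CPM of each gene list (columns) over 22 libraries, from -1 (blue) to 1 (red). Cd5 has r = -0.70 with pan-leukocyte and 0.64 with basal keratinocyte genes, while Cd3d has 0.52 and -0.37.

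Basal keratinocyte genes moved with Cd5 between groups as well. All 10 keratinocyte markers fell with Keap1 deletion among BAP tumours, where 20% of all genes were called lower. With BAP in Keap1-deleted tumours 8 of 10 fell, where 5.16% of all genes were called lower. The 10 markers summed to 81.1 to 1670 CPM in Keap1-deleted BAP and 2208 to 28054 CPM in Keap1-deleted untreated tumours. They summed to 27249 to 63268 CPM in Keap1-wildtype BAP and 1159 to 47937 CPM in Keap1-wildtype untreated tumours. Krt14 alone was 820, 1158, 448, 13.0 and 1062 CPM in the 5 Keap1-deleted BAP libraries. In Keap1-wildtype untreated tumours, Cd5 was lowest (1.32 CPM) in library 6, the one with 762 CPM of Krt14. Within the Keap1-deleted BAP group the 2 genes did not keep 1 order. Cd5 was lowest there (0.265 CPM) in library 5, with 1062 CPM of Krt14, and highest (1.61 CPM) in library 3, with 448 CPM. The part of keratinocyte content in the Cd5 difference was not tested.

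B cells, of which some carry CD5, had few transcripts in the group where Cd5 was highest. Ms4a1 and Pax5, the defining B cell genes, were at 0 in all 6 Keap1-wildtype BAP libraries, and the 6 B cell markers summed to 1.1 to 4.0 CPM there. The 6 summed to 1.16 to 4.95 CPM in Keap1-wildtype untreated, 2.39 to 8.63 CPM in Keap1-deleted untreated and 1.77 to 6.66 CPM in Keap1-deleted BAP tumours, so the groups overlapped. In Keap1-wildtype BAP tumours the 3 Cd3 genes together had 0.611 to 5.22 CPM, against 8.77 to 21.8 CPM for Cd5. The summed Cd3 median of 1.81 CPM was the lowest of the 4 groups, but the range overlapped that of every other group. Cd3d alone had a higher median there (1.16 CPM) than in Keap1-wildtype untreated (0.852 CPM) or Keap1-deleted BAP tumours (0.990 CPM). Other T cell genes were mixed there. Trbc2 ran from 30.0 to 40.3 CPM, its highest group mean, and Tcf7 had a median of 11.8 CPM. Trac (0.932), Trbc1 (1.14), Trdc (1.29) and Cd247 (0.906 CPM) had their lowest group mean there. So had Cd3e, Cd3g, Cd4, Cd8a, Cd8b1 and Il7r, whereas Cd3d, Tcf7, Lck and Zap70 had theirs in another group. The ranges of all the genes with their lowest mean there overlapped those of Keap1-deleted BAP tumours. Which cells carried the Cd5 transcripts was not tested.

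**Figure D5:**
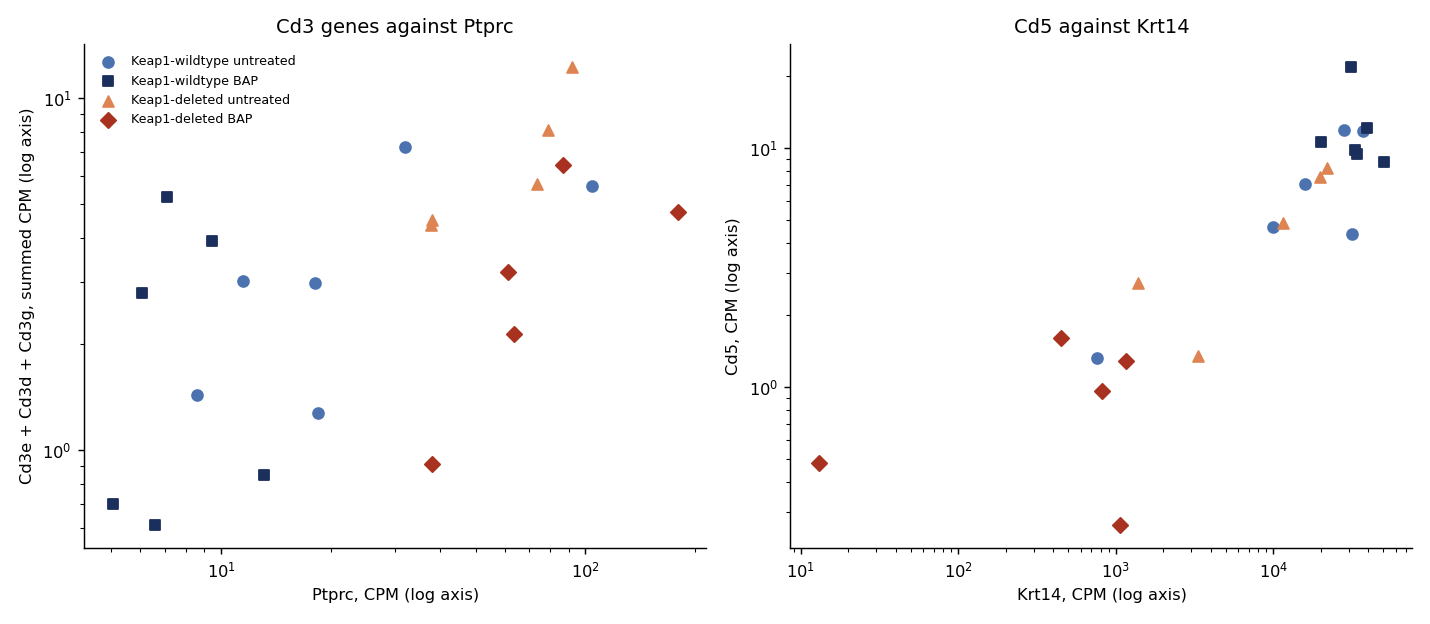
Left, summed CPM of Cd3e, Cd3d and Cd3g against Ptprc, and right, Cd5 against Krt14, in each of the 22 libraries (both axes logarithmic, 1 point per library, marked by group). On the right the Keap1-deleted BAP libraries lie at 13.0 to 1158 CPM of Krt14 and 0.265 to 1.61 CPM of Cd5, and Keap1-wildtype BAP at 20030 to 50528 and 8.77 to 21.8 CPM.

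The antigen receptor chains themselves gave 2 further patterns. Trbc2, a constant region of the beta chain, fell with Keap1 deletion among BAP tumours (-2.32 ± 0.32, adjusted p 0.000244) and with BAP in Keap1-deleted tumours (-1.22 ± 0.31, adjusted p 0.0283), and its interaction was -1.58 ± 0.42 (adjusted p 0.0348). It ran from 30.0 to 40.3 CPM in Keap1-wildtype BAP tumours. In Keap1-deleted BAP tumours it was 5.28, 13.8, 5.32, 4.20 and 7.42 CPM, with no overlap. Trbc1, the other constant region of the beta chain, had overlapping ranges and did not pass. Its group mean was lowest in Keap1-wildtype BAP (1.14 CPM) and highest in Keap1-deleted BAP tumours (2.04 CPM). Of the 8 antigen receptor chain genes, Cd247 included, 7 had positive values for Keap1 deletion among BAP tumours. Trac, the constant region of the alpha chain, was far lower per kilobase (1.60 against 33.1 CPM per kb for Trbc2), though the 2 proteins pair in 1 receptor. Like Cd5, Trbc2 had its highest group mean in Keap1-wildtype BAP tumours, where the summed Cd3 genes had their lowest group median.

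Trdc, the constant region of the delta chain of gamma delta T cells, was 9.89, 35.5, 8.11, 5.66 and 11.4 CPM in Keap1-deleted untreated tumours and 3.54, 1.19, 0.907, 1.12 and 1.56 CPM in Keap1-deleted BAP tumours. The groups did not overlap, and Trdc fell with BAP by 3.08 on the log2 scale (SE 0.67, edgeR adjusted p 0.0173). Trac ran from 1.06 to 2.73 CPM in Keap1-deleted untreated tumours, which per kilobase is 2.10 for its mean against 3.65 CPM per kb for Trdc. The deposited lengths behind these values are 935 bases for Trac and 3865 for Trdc. Keap1 deletion without BAP gave 1.80 ± 0.60 for Trdc, which did not pass (adjusted p 0.145). Of the 8 genes of this list, zeta chain gene Cd247 included, 1 fell with Keap1 deletion in BAP tumours and 2 fell with BAP in Keap1-deleted tumours, and the list medians were 0.34 and -1.48. Of all genes 20% and 5.16% were called lower in these comparisons. The second count was 1 without the low-count filter or with the compared groups only and 4 with limma-voom.

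Genes downstream of the receptor rose with Keap1 deletion among BAP tumours where the Cd3 genes did not pass. Of 18 tested antigen receptor signalling genes 7 rose and none fell (median 0.95), led by the adaptor Fyb (3.31 ± 0.58, adjusted p 0.000453), the exchange factor Vav1 (3.40 ± 0.61, adjusted p 0.000496), the adaptor Lcp2 (3.43 ± 0.79, adjusted p 0.00239) and Nfatc2 (2.42 ± 0.59, adjusted p 0.00329). Fyb, Vav1 and Lcp2 are also known from myeloid and natural killer cells. Zap70, the kinase that binds phosphorylated CD3, had medians of 1.62 CPM in Keap1-wildtype BAP and 1.11 CPM in Keap1-deleted BAP tumours. Themis and Trat1, both known mainly from T cells, averaged 0.0802 and 0.0862 CPM and were not tested.

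Of 19 genes for T cell surface, costimulation and homing 7 rose and none fell in the same comparison (median 1.49). They included the egress receptor S1pr1 (2.07 ± 0.40, adjusted p 0.000762), the SLAM family receptor Slamf6 (4.26 ± 0.96, adjusted p 0.00189) and the integrin chain Itgal (1.76 ± 0.52, adjusted p 0.0108). Of 14 T lineage transcription factors 7 rose and 3 fell (median 1.13). Bcl11b, which commits cells to the T lineage and is also known from skin keratinocytes, fell by 3.87 on the log2 scale (SE 0.56, adjusted p 0.000272), and Zbtb7b, the factor of helper T cells, by 1.4 (SE 0.31, adjusted p 0.00156). Ikzf1 (3.69 ± 0.61, adjusted p 0.000361) and Satb1 (3.06 ± 0.60, adjusted p 0.000783) rose. Against the 20.3% of all genes called higher, these shares of 7 in 18, 7 in 19 and 7 in 14 stand beside the rise of all 5 pan-leukocyte genes in that comparison, whose summed level was 455 to 1111 CPM in Keap1-deleted BAP and 49.8 to 101 CPM in Keap1-wildtype BAP tumours. Markers outside the leukocytes rose in it as well: all 8 fibroblast markers (median 4.20, summed level 11813 to 36872 CPM against 554 to 2069 CPM), all 8 skeletal muscle markers (median 5.03, 14.1 to 1019 CPM against 3.93 to 61.9 CPM) and 3 of 7 endothelial markers. The part of leukocyte, fibroblast, muscle and endothelial content in these counts was not tested.

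Of the 10 genes on the interleukin 7 axis, Crlf2 (1.08 ± 0.36, adjusted p 0.0219), part of the receptor for TSLP that shares the Il7r chain, rose with Keap1 deletion among BAP tumours. Cish (-1.68 ± 0.43, adjusted p 0.00485), a feedback inhibitor of cytokine signalling, and Tslp (-2.76 ± 0.83, adjusted p 0.0120), the epithelial cytokine itself, fell. These were 1 higher and 2 lower calls of 10 where 20.3% of all genes were called higher and 20% lower. The number that rose was 3 with DESeq2 size factors, DESeq2, limma-voom, the compared groups only or both libraries that stood apart left out, and 4 under library totals. In the comparison where Il7r fell, BAP in Keap1-deleted tumours, none of the 10 passed in edgeR (2 had an unadjusted p under 0.05, and DESeq2 and limma-voom each called 1 as lower). Cish had -1.36 ± 0.44 (adjusted p 0.0719) and Tslp 1.89 ± 0.84 (adjusted p 0.2). Innate lymphoid cells also carry Il7r. In that comparison 2 of 6 tested markers of their group 2 form fell, where 5.16% of all genes were called lower. The listed markers summed to 168 to 852 CPM without and 76.0 to 1183 CPM with BAP, and Il13 was at 0 in all 5 libraries with BAP. The part of innate lymphoid cells in the Il7r difference was not tested.

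In the other comparisons few genes of these lists passed in edgeR. Without BAP, Fyn, a kinase related to Lck, rose with Keap1 deletion (1.12 ± 0.22, adjusted p 0.0300), and no other of the 69 tested genes in the 5 lists (9 had an unadjusted p under 0.05). DESeq2 called 2 as higher and 1 as lower there, and limma-voom 12 and 1. When the 2 libraries that stood apart were left out, 14 rose and 3 fell, among them 5 signalling, 4 surface and 4 transcription factor genes that rose. BAP in Keap1-wildtype tumours changed none of the 69 in edgeR (21 had an unadjusted p under 0.05) or limma-voom, and DESeq2 called 12 as lower. The lowest adjusted p was 0.145, shared by Fyb (-1.90 ± 0.54), Vav1 (-2.03 ± 0.56), Ikzf1 (-2.11 ± 0.56), Satb1 (-2.02 ± 0.57), Ccr7 (-2.10 ± 0.46) and Spn (-1.78 ± 0.48). With BAP in Keap1-deleted tumours Bcl11b fell (-2.72 ± 0.54, adjusted p 0.0150), and the interaction passed for Bcl11b (-2.99 ± 0.70, adjusted p 0.0299) and Ikzf1 (2.97 ± 0.81, adjusted p 0.0372).

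Over the 22 libraries, the genes most like the mean of the 3 Cd3 genes, by Pearson's r after group means were removed, were sought among 13597 genes of at least 1 CPM on average. Wfdc17 had r = 0.79 (Spearman's rho 0.86, pooled over groups r = 0.70), and Pkib (0.78), Mthfs (0.77), Trp53inp2 (0.77), Creg1 (0.77) and Clec2d (0.76) followed. B2m, the light chain of class I molecules, had 0.74, the T cell kinase gene Zap70 0.74, Il10rb 0.72 and Tmem59 0.72. Zap70 is the single gene of the 10 that belongs to the T cell lists. With the 2 libraries that stood apart left out, 3 of the 10 were among the first 10 again, so the list changed with those libraries.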

How the data were processed

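RNA from 22 tumours (6 untreated and 6 BAP with Keap1 wildtype, 5 and 5 with Keap1 deleted) was sequenced from pulverised frozen tissue, per the labels' protocols. The authors deposited expected counts per gene with 1 table per library, in the column layout of RSEM per the file headers. For the aligner, annotation and strand setting, names were not given in the sources used here. All expected counts were whole numbers, so rounding changed none. Gene lengths as deposited, used for levels per kilobase, equalled the union of exons in GENCODE M21 (GRCm38) for 96.1% of identifiers, and symbols came from that annotation (52073 identifiers, 99.4% of counts). The least different pair of libraries had a chi-square per degree of freedom of 96.5 over 12352 genes, so none was a duplicate.

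edgeR 4.0.16 (R 4.3.3) with TMM scaling and filterByExpr (minimum count 10) left 19202 genes. One quasi-likelihood fit over the 4 groups gave 5 contrasts, with Benjamini-Hochberg adjustment over all genes tested and a threshold of 0.05. Log2 CPM for correlations used a prior count of 2. Ratios used counts plus 0.5 and two-sided exact permutation tests (SciPy 1.17.1), adjusted over 8 tests. Floors of 3 counts cover counting error only. Promoter sequences are RefSeq's on GRCm38.p6. Alternatives were DESeq2 1.42.0, limma-voom (limma 3.58.1), other scalings and filters, a covariate for the 8 titles that end in R, whose meaning the labels do not give, and leaving out libraries. The labels name no batch.

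The 10 genes and all lists were chosen with earlier results of these data known. In each list of pathway genes, named genes are those past the threshold, at most 4 by p, or otherwise those with the smallest p. One gene that this rule names is not reported here. A few further genes (Zap70, Zbtb7b, Satb1 and those sharing an adjusted p) were named after their values were seen. The counts of pathway genes under alternatives were also added after the data were seen.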

Additional observations from a re-analysis of the deposited data

Results flagged for a closer look

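In 40 groups of single genes (10 genes in 4 groups), 5 held a library far from the rest of its group. For normally distributed values chance alone gives about 1 in 20. Low counts in CPM on a linear scale need not be so distributed, so that rate is only a guide here. Each gap was over 0.625 of the group's range, the critical value for 6 samples.

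Cd3e was 1.27 CPM in Keap1-wildtype untreated 4, with a gap of 0.681 of the range. Cd3g was 3.32 CPM in Keap1-wildtype BAP 6 (gap 0.804), the library without a count of Cd3e. Cd8a was 1.07 CPM in Keap1-wildtype BAP 4 (gap 0.754), the library without a count of Cd4, and Cd5 was 21.8 CPM in the same library (gap 0.743). Lck was 4.97 CPM in Keap1-wildtype BAP 2 (gap 0.771).

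The effect of BAP on Cd5 differed between the genotypes in the main fit, with an interaction of -3.24 on the log2 scale (edgeR adjusted p 0.0299). That call was lost without the low-count filter, and also when certain single libraries were left out. Cd5 was lower in Keap1-deleted tumours with BAP and had a positive value, which did not pass, in Keap1-wildtype tumours.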

How the results depend on the processing

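No paired analysis was possible because the labels give the groups no shared replicate numbers. The fall of Cd5 with Keap1 deletion among BAP tumours kept its direction and its call under every alternative run. The number of the 10 genes called was 2 for BAP in Keap1-deleted tumours but 1 under library totals or without the low-count filter and 0 with only the compared groups in the fit. It was 1 for Keap1 deletion with BAP but 2 under library totals, and 1 for the interaction but 0 without the filter. With 1 library left out these counts ran from 0 to 2, 1 to 2 and 0 to 1.

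Of the fitted log2 changes of the 10 genes, counted over comparisons and alternatives, 1012 kept direction and side of the threshold, 58 reversed, 3 passed newly and 21 no longer passed; the cause was not tested. For Keap1 deletion with BAP the reversals were Cd3d at 0.33 and Tcf7 at 0.40 (library totals), Cd3d at 0.51, Il7r at -0.011 and Lck at -0.036 (limma-voom), Cd3d at 0.068 (both libraries that stood apart left out), and Tcf7 at 0.0018 (DESeq2 size factors), 0.0021 (DESeq2), 0.0047 (compared groups only) and 0.13 (title suffix). For BAP in Keap1-wildtype tumours Tcf7 was 0.078 by limma-voom and 0.080 without both libraries, and Cd3d 0.061 without both. For Keap1 deletion without BAP, Cd5 was 0.16 with the title suffix and Cd8b1 0.16 without both libraries. In the interaction limma-voom gave 0.068 for Cd3e and -0.015 for Cd3g, and leaving out both libraries -0.015 for Cd4.

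Leaving out 1 library gave reversing ranges for Keap1 deletion with BAP of -0.42 to 0.12 (Cd3d), -0.20 to 0.31 (Il7r), -0.31 to 0.41 (Lck) and -0.31 to 0.15 (Tcf7). The ranges were -0.55 to 0.11 (Cd3d) and -0.24 to 0.10 (Tcf7) for BAP in Keap1-wildtype tumours, -0.30 to 0.50 (Cd8b1) and -0.16 to 0.48 (Lck) for BAP in Keap1-deleted tumours, -0.81 to 0.16 (Cd8b1) for Keap1 deletion without BAP, and -1.10 to 0.38 (Cd3e), -0.33 to 1.18 (Cd3g) and -0.048 to 0.66 (Cd4) for the interaction. The Cd3 to Ptprc ratio ran from -2.90 to -2.20 (Keap1 deletion with BAP) and -1.72 to -1.32 (BAP in Keap1-deleted tumours), and was -2.38 and -1.32 without both libraries. The Cd8a to Cd4 ratio ran from -0.74 to 1.24, -0.84 to 1.13 and 1.79 to 2.60 (Keap1 deletion with BAP, BAP in Keap1-wildtype and in Keap1-deleted tumours), and for the first was 0.018 with an offset of 1 and 0.21 without both libraries.

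Over all genes, calls for Keap1 deletion without BAP were 56 but 944 with DESeq2, 1888 with limma-voom, 36 without the filter, 0 with the compared groups only, 28 with the title suffix and 2530 without both libraries. BAP in Keap1-wildtype tumours gave 0 but 892 with DESeq2 and 37 with the title suffix. BAP in Keap1-deleted tumours gave 1172 but 2112 with DESeq2, 3237 with limma-voom, 398 without the filter and 352 with the compared groups only. The interaction gave 1333 but 3008 with DESeq2, 111 without the filter and 3021 with the title suffix. With 1 library left out, calls ran from 1 to 2309 for the interaction, 181 to 1597 for BAP in Keap1-deleted tumours, 16 to 2731 for Keap1 deletion without BAP and 6768 to 7536 for Keap1 deletion with BAP. Under library totals the higher calls were 1102 of 1772 in the interaction in place of 475 of 1333, 275 of 1030 in place of 181 of 1172 for BAP in Keap1-deleted tumours, and 59 of 67 in place of 41 of 56 for Keap1 deletion without BAP. The Cd3 and Cd8 genes had few counts per library, which limits the precision of their values.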

Other observations

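Genes whose level followed that of Cd5 were looked up after the values of Cd5 had been seen. With group means removed, the highest Pearson's r over 22 libraries among 13597 genes were those of Tle3 (0.91), Kif5b (0.89), Tmem266 (0.88), Nectin1 (0.88) and Scamp1 (0.88). Nectin1 encodes a cell adhesion protein known from epithelium. Cst6, an epidermal protease inhibitor, had 0.87. None of the 10 genes closest to Cd5 was among the 10 closest to the mean of the Cd3 genes. Lists this short out of 13597 genes would seldom share a gene in any case, so no conclusion is drawn from it.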
